A study of Mus musculus with 24 samples.

Results

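Augmin is a protein complex of 8 subunits, Haus1 to Haus8, and their mRNAs were followed here in the cerebral cortex of Fmr1 knockout (KO) mice and wild-type (WT) littermates. The members were the probe sets whose only gene symbol in the annotation of the Affymetrix Mouse 430 2.0 array is one of Haus1 to Haus8, which gave 8 of 18193 genes and 12 of 45037 probe sets. Haus2 had 4 probe sets, Haus6 had 2 and each other subunit had 1. The group was chosen by measured values: it was drawn up around Haus7, which had the smallest p-value after Fmr1 between genotypes in these same arrays. The Haus7 difference between genotypes is therefore described below without a test.

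The series held 24 arrays of cortex, freed of white matter, from male FVB mice at postnatal day 7. There were 6 arrays of Fmr1 KO polyribosomal RNA, 6 of WT polyribosomal RNA, 6 of Fmr1 KO total RNA and 6 of WT total RNA. Each array number within a genotype stands for a lysate made from 2 pooled mice, with 20% kept as total cytoplasmic RNA before the sucrose gradient. Gradient fractions 10 to 13, which held mRNA bound by at least 6 ribosomes, were combined as polyribosomal RNA. Fmr1 encodes FMRP, an RNA-binding protein that associates with polyribosomes and whose loss causes fragile X syndrome in people. Per the labels the mutant mice were Fmr1 null, all mice were male and so had 1 X chromosome, and every lysate of both genotypes was prepared in cycloheximide, a drug that halts ribosomes on mRNA.

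Augmin binds the side of an existing microtubule and recruits the gamma-tubulin ring complex, which starts a new microtubule as a branch. In dividing cells this fills the mitotic spindle with microtubules. In neurons, which have stopped dividing, augmin takes part in making the microtubules of axons and dendrites that do not come from a centrosome. Haus8 contacts the microtubule, Haus6 contacts the gamma-tubulin ring complex through the adaptor Nedd1, and Haus2 and Haus7 belong to the same arm of the human complex. Haus1, Haus3, Haus4 and Haus5 form the other arm. Human HAUS7 was also isolated as a partner of UCHL5, a deubiquitinating enzyme of the proteasome and of the INO80 complex.

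The genes of the 8 subunits lie on 8 different chromosomes: Haus7 on X, Haus8 on 8, Haus6 on 4, Haus2 on 2, Haus1 on 18, Haus3 on 5, Haus4 on 14 and Haus5 on 7. Promoter windows are shown for Haus7 and Haus4 because these are the subunits that were higher in polyribosomal than in total RNA past the test in both genotypes. Each window runs from 250 bases before to 50 bases after the annotated gene start, is read on the minus strand, 5′ to 3′, and comes from RefSeq on build GRCm38.p6. The windows are chrX:73458980-73459279 for Haus7 and chr14:54554312-54554611 for Haus4. Capitals mark CCAAT, the core of the motif bound by the factor NF-Y, or its reverse complement ATTGG.
Haus7: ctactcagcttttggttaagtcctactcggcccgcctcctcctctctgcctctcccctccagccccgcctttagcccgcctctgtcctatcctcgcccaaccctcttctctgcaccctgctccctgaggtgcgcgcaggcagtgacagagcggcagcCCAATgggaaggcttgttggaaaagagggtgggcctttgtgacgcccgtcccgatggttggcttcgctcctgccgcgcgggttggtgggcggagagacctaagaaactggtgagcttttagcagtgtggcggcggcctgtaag
Haus4: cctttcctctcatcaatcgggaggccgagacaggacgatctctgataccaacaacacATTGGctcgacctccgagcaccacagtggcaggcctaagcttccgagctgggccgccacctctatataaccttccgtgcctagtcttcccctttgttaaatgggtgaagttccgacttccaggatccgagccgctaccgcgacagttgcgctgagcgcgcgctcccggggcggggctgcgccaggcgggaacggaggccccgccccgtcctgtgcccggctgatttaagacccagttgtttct
The Haus7 and Haus4 windows held the motif once each, in Haus4 as ATTGG. A window was given for 7 of the 8 subunits, and 4 of these 7 held the motif on either strand, against 41.1% of the 27025 genes with a RefSeq window of this length. TTTGAA, the core of the CHR motif of many cell-cycle genes, was in none of the 7, against 20.2% of these genes, counting either strand. CG dinucleotides numbered 18 in the Haus7 window and 25 in that of Haus4, where the median over all windows was 7 with quartiles of 3 and 20. A match is a description of letters only.

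The values are log2 intensities, and 4 was taken as the limit below which a probe set is dim. A probe set was tested where at least 6 of the arrays compared reached that limit. In each of the 5 comparisons 6 of the 8 subunits and 8 of the 12 probe sets were tested: those of Haus1, Haus3, Haus4, Haus7 and Haus8, and 3 of the 4 of Haus2. Haus5 reached the limit on 2 of 24 arrays, and both Haus6 probe sets and Haus2 probe set 1454112_a_at on 0. A gene with several probe sets is represented by its brightest probe set on average (1430577_at for Haus2 and 1429665_at for Haus6). Levels of different probe sets are not compared, because probes differ in how brightly they bind.

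As a check of the labels, Fmr1 averaged 6.38 ± 0.16 in KO total RNA and 9.66 ± 0.18 in WT total RNA (SD, n = 6 each), and 6.19 ± 0.48 in KO and 9.90 ± 0.21 in WT polyribosomal RNA. The Fmr1 difference was -3.28 in total RNA (limma adjusted p = 1.29e-10) and -3.71 in polyribosomal RNA (adjusted p = 4.35e-08). All 5 cortical identity genes on the array were at or above the limit on every array. Of 10 marker genes of other brain regions, 7 were below it on every array and Zic1, Drd1 and Tcf7l2 were not. Array medians ran from 3.17 to 3.20, and no 2 arrays were identical. The choroid plexus gene Ttr ranged from 2.65 to 12.2 between arrays. WT polyribosomal array number 4 had the lowest mean correlation with its group (0.9932), and KO polyribosomal array number 5 was close to it (0.9934).

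Haus7 was lower in Fmr1 KO than in WT cortex in both kinds of RNA. In total RNA the 6 KO arrays had a lowest, median and highest log2 value of 4.85, 5.11 and 5.30, against 5.62, 6.17 and 6.35 in the 6 WT arrays. In polyribosomal RNA the KO values were 5.32, 5.96 and 6.35, against 6.62, 6.80 and 7.24 in WT. Within each RNA kind the highest KO array lay below the lowest WT array, and KO was the lower one in 6 of 6 same-numbered pairs in both.

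The mean Haus7 level was 5.11 ± 0.16 in KO and 6.09 ± 0.26 in WT total RNA (SD, n = 6 each), a difference of -0.98 with a standard error of 0.11 and a 95% interval of -1.22 to -0.74. This is a 1.97-fold lower level in KO. In polyribosomal RNA the means were 5.90 ± 0.41 in KO and 6.85 ± 0.25 in WT, a difference of -0.95 (standard error 0.17, interval -1.32 to -0.58), or 1.93-fold. These values chose the group and carry no test here, and the polyribosomal and total arrays of one number share a lysate. Such non-overlap with KO lower was met by 0.206% of the 9690 genes measured in total RNA and 0.0414% of the 9664 in polyribosomal RNA, figures given as background only. In tissue RNA, fewer cells expressing a gene and less RNA per cell cannot be told apart.

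In the order of its group means, Haus7 was lowest in KO total RNA and highest in WT polyribosomal RNA. Between them lay KO polyribosomal RNA (5.90) and WT total RNA (6.09), whose arrays overlapped: 3 of the 6 KO polyribosomal values fell inside the WT total range of 5.62 to 6.35. The spread of Haus7 was widest among KO polyribosomal arrays, where numbers 3 and 2 were lowest (5.32 and 5.55) and numbers 5 and 1 highest (6.35 and 6.25).

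**Figure D1:**
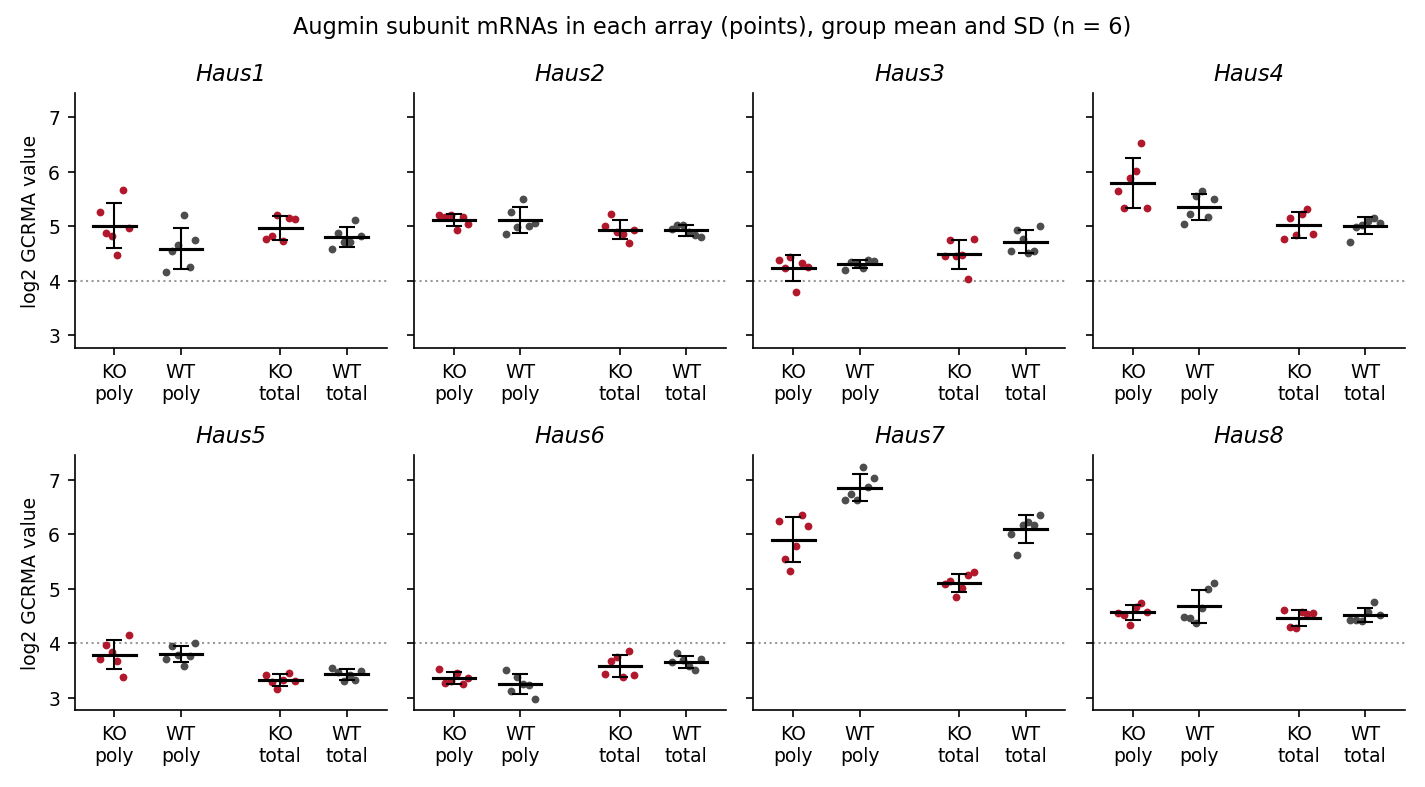
Log2 level of each augmin subunit on every array, by group, with KO left of WT within each RNA kind, at the probe set that represents the gene. The axis is the log2 GCRMA value, the dotted line is the limit of 4, poly stands for polyribosomal, and points are arrays with the group mean and SD (n = 6). The Haus7 points of KO and WT arrays do not overlap in total RNA (KO up to 5.30, WT from 5.62) or in polyribosomal RNA (KO up to 6.35, WT from 6.62). For each other subunit, KO and WT overlap within each RNA kind.

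None of the other 5 measured subunits passed the test between genotypes. Leaving Haus7 aside, limma called 0 of 5 in total RNA, where 0.0413% of all measured genes were called in either direction, and 0 of 5 in polyribosomal RNA, against 0.0103%. At an unadjusted p under 0.05 there were 0 of the 5 in total RNA and 2 in polyribosomal RNA (Haus1 and Haus4), where 5.05% and 2.22% of all genes had such a p. The differences of the 5 ran from -0.23 to 0.17 in total RNA and from -0.11 to 0.44 in polyribosomal RNA.

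Among the partners of Haus7 in its own arm, Haus2 and Haus8 differed little between the genotypes. Haus2 averaged 4.94 ± 0.17 in KO and 4.92 ± 0.09 in WT total RNA, and 5.12 ± 0.11 in KO and 5.12 ± 0.23 in WT polyribosomal RNA. Its difference was 0.01 (interval -0.16 to 0.18) in total RNA and 0.00 (interval -0.23 to 0.24) in polyribosomal RNA.

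Haus8, the microtubule-binding subunit, averaged 4.47 ± 0.15 in KO and 4.52 ± 0.13 in WT total RNA, a difference of -0.05 (interval -0.22 to 0.12). In polyribosomal RNA it averaged 4.56 ± 0.14 in KO and 4.68 ± 0.30 in WT, a difference of -0.11 (interval -0.39 to 0.17). Haus6, which reaches the gamma-tubulin ring complex, stayed below the limit on all arrays at both probe sets. Its group means at 1429665_at were 3.58 in KO and 3.66 in WT total RNA, and 3.36 in KO and 3.24 in WT polyribosomal RNA, which give a bound and no difference.

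In the other arm, Haus1 and Haus4 had higher KO means in polyribosomal RNA without passing the test. For Haus4 the lowest, median and highest values were 5.34, 5.77 and 6.53 in KO, against 5.03, 5.36 and 5.64 in WT, and the groups overlapped. The difference was 0.44 (standard error 0.19, interval 0.05 to 0.83, adjusted p = 1.00), and KO was higher in 5 of 6 same-numbered pairs. In total RNA Haus4 averaged 5.03 ± 0.23 in KO and 5.01 ± 0.16 in WT, a difference of 0.02 (interval -0.21 to 0.24).

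Haus1 in polyribosomal RNA had a lowest, median and highest value of 4.48, 4.93 and 5.67 in KO, against 4.16, 4.60 and 5.20 in WT. The difference was 0.42 (standard error 0.20, interval 0.00 to 0.84, adjusted p = 1.00), again with KO higher in 5 of 6 pairs. The Haus1 difference was 0.23 without the arrays numbered 5 and 0.65 without those numbered 4, while that of Haus4 was 0.26 without the arrays numbered 5. In total RNA Haus1 averaged 4.97 ± 0.22 in KO and 4.81 ± 0.18 in WT, a difference of 0.17 (interval -0.06 to 0.40).

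Haus3 was lower in KO total RNA in 6 of 6 same-numbered pairs, with overlapping groups. Its lowest, median and highest values were 4.04, 4.47 and 4.76 in KO, against 4.51, 4.66 and 5.01 in WT. The difference was -0.23 (standard error 0.13, interval -0.50 to 0.04, limma adjusted p = 0.998). In polyribosomal RNA it was -0.07 (interval -0.31 to 0.16). Haus5 was below the limit on every total RNA array, with means of 3.32 in KO and 3.42 in WT.

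Polyribosomal and total RNA of the same lysate give a second comparison. The group was not chosen on this difference, but Haus7 was chosen on values of the same arrays. The Haus7 tests of this comparison are therefore not independent of the choice. The comparison asks whether a subunit's mRNA was over- or under-represented among mRNAs on 6 or more ribosomes. Because the arrays were brought to nearly equal medians, such a difference is relative to the other mRNAs and is no absolute share of a gene's mRNA. Haus7 and Haus4 rose in polyribosomal RNA in both genotypes, and Haus3 fell in WT. Most genes differed here: 66.9% of 9700 measured genes passed the test in KO (38.7% higher and 28.2% lower) and 65.9% of 9725 in WT (37.5% higher and 28.4% lower). Of the 6 measured subunits, 2 were higher and 0 lower in KO, and 2 were higher and 1 lower in WT. The median difference of the 6 was 0.14 in KO and 0.18 in WT, against 0.09 over all genes in each genotype. The share of subunits called, 2 of 6 in KO and 3 of 6 in WT, was not above that over all genes.

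Haus7 was higher in polyribosomal RNA in 6 of 6 KO lysates and 6 of 6 WT lysates. The lysate differences had a lowest, median and highest value of 0.41, 0.80 and 1.16 in KO and 0.46, 0.69 and 1.12 in WT. The mean difference was 0.79 in KO (standard error 0.11, limma adjusted p = 6.63e-05) and 0.76 in WT (standard error 0.10, adjusted p = 5.42e-05). These lay at percentiles 92.5 and 92.9 of all measured genes in KO and WT. All 6 WT polyribosomal values of Haus7 were above all 6 WT total values, and the same held in KO, as it did with polyribosomal RNA higher for 24.1% of genes in KO and 21.8% in WT.

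Haus4 was also higher in polyribosomal RNA in all lysates, by a mean of 0.77 in KO (standard error 0.12, adjusted p = 0.000202) and 0.34 in WT (standard error 0.093, adjusted p = 0.00677). Its lysate differences ran from 0.19 to 1.20 in KO, and from 0.0025 to 0.543 in WT, where the lysate numbered 5 showed almost none. Both subunits kept the call when any 1 lysate number was left out.

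Among the tested subunits, Haus3 was the one called lower in polyribosomal RNA, in WT. In KO its polyribosomal values had a lowest, median and highest of 3.79, 4.29 and 4.44, and in WT they were 4.21, 4.33 and 4.39, close to the limit for dim probe sets in both genotypes. The mean difference was -0.26 in KO (standard error 0.12, adjusted p = 0.0905, lower in 5 of 6 lysates) and -0.41 in WT (standard error 0.091, adjusted p = 0.00195, lower in 6 of 6). Without the lysates numbered 5, the KO difference was -0.36 with an adjusted p of 0.0166. Haus6, too dim for a test, had polyribosomal means below its total means at both probe sets. At 1429665_at it differed by -0.42 in WT (lower in 6 of 6 lysates) and by -0.22 in KO (4 of 6). At 1455488_at it differed by -0.27 in WT (lower in 4 of 6 lysates) and by -0.20 in KO (5 of 6). All Haus6 values were below the limit, so they give a bound and no difference.

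Haus1, Haus8 and the probe set that represents Haus2 did not pass the test in either genotype, while another Haus2 probe set, 1432511_s_at, passed it in KO. Haus1 differed by 0.04 in KO (adjusted p = 0.788) and by -0.21 in WT (adjusted p = 0.207), and without the WT lysate numbered 4 by -0.35 (adjusted p = 0.0283). Haus8 differed by 0.10 in KO (adjusted p = 0.295) and by 0.16 in WT (adjusted p = 0.164). The probe sets of Haus2 did not point the same way. Probe set 1430577_at differed by 0.18 in KO (adjusted p = 0.0834) and by 0.19 in WT (adjusted p = 0.111), 1432511_s_at by 0.26 (adjusted p = 0.0481) and 0.23 (adjusted p = 0.235), and 1439032_at by -0.13 and -0.17. Without the lysate numbered 2, 1430577_at reached an adjusted p of 0.0498 in KO. The dim Haus5 averaged 3.78 in KO polyribosomal and 3.32 in KO total RNA, and 3.80 in WT polyribosomal and 3.42 in WT total RNA.

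**Figure D2:**
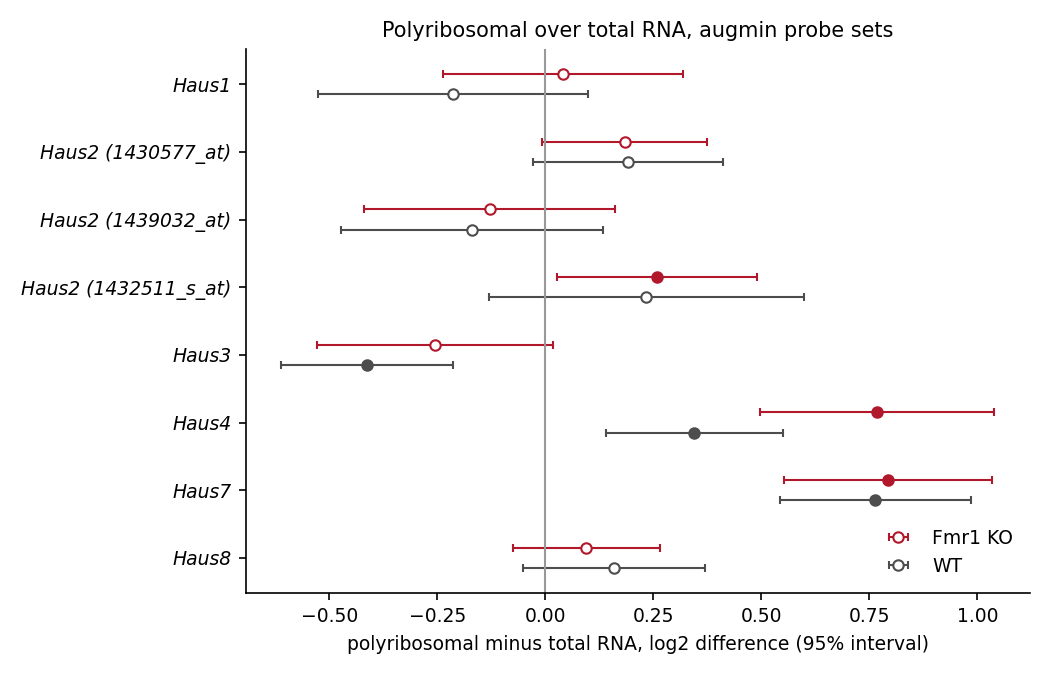
Mean polyribosomal minus total log2 difference of each tested probe set of the subunits with its 95% interval, for KO and WT (6 lysates each). Filled points have an adjusted p under 0.05 and hollow points do not. Haus7 (0.79 in KO, 0.76 in WT) and Haus4 (0.77 and 0.34) lie above 0, and Haus3 (-0.26 and -0.41) lies below it.

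The difference between genotypes in the polyribosomal minus total difference was then tested over the 12 lysates, 6 of each genotype. This test uses the same arrays as the comparisons above, total RNA included, so for Haus7 it is not independent of the choice of the group. No subunit passed, and of all 9955 genes limma called 0, or 0%, while 233 genes (2.34%) had an unadjusted p under 0.05. For Haus7 it was 0.03 (standard error 0.15, interval -0.30 to 0.35, adjusted p = 0.999). Its sign turned with the lysate number left out, between -0.07 and 0.18.

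For Haus4 the difference between genotypes was 0.42 (standard error 0.16, interval 0.08 to 0.76), with an unadjusted limma p of 0.0181 and an adjusted p of 0.999. It was 0.27 without the lysates numbered 5, where KO and WT stood furthest apart. For Haus3 it was 0.16 (standard error 0.16, adjusted p = 0.999), so that a difference between WT, where Haus3 passed the test, and KO, where it did not, was not shown. For Haus1, Haus2 and Haus8 it was 0.26, -0.01 and -0.06.

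**Figure D3:**
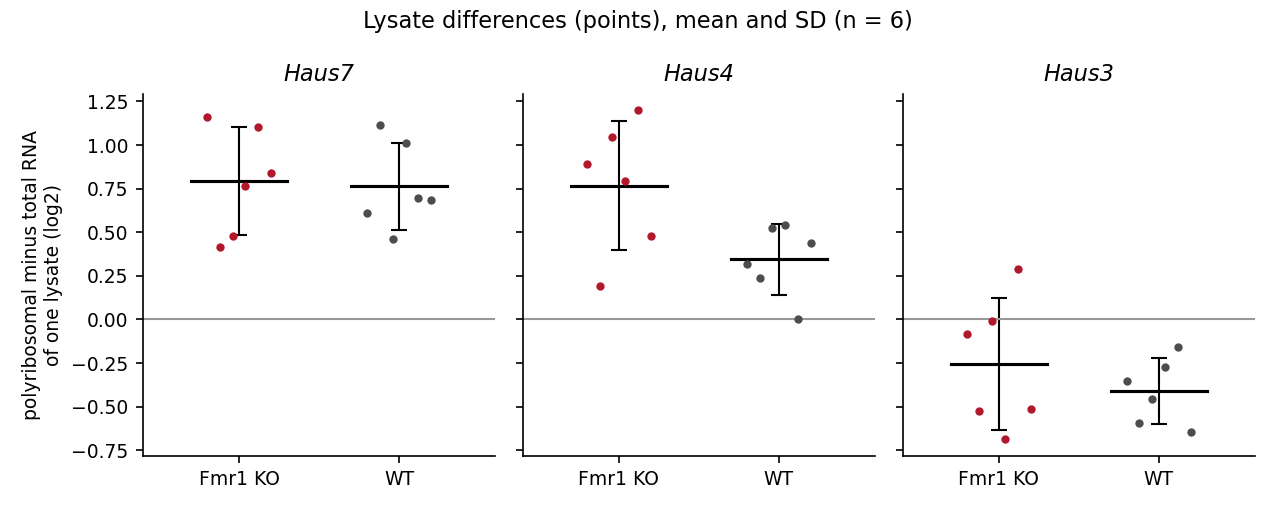
Polyribosomal minus total log2 difference of Haus7, Haus4 and Haus3 in every lysate, KO left of WT, with 1 point per lysate and bars for the mean and SD (n = 6). All 12 lysates lie above 0 for Haus7 (0.41 to 1.16 in KO, 0.46 to 1.12 in WT) and for Haus4 (0.19 to 1.20 in KO, 0.0025 to 0.543 in WT), and the genotypes overlap for all 3 subunits.

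The proteins that work with augmin were followed through 6 gene lists. No gene of these lists passed the test between genotypes: limma called 0 of 44 measured genes in total RNA and 0 of 46 in polyribosomal RNA. Their differences ran from -0.23 to 0.17 in total RNA, with 3 genes at an unadjusted p under 0.05, and from -0.34 to 0.33 in polyribosomal RNA, with 0. None of the measured marker genes of 11 cell-type and tissue lists passed either (0 of 56 in total RNA, 3 of them at an unadjusted p under 0.05, and 0 of 58 in polyribosomal RNA, with 0). Over all genes, 0.0413% were called in total and 0.0103% in polyribosomal RNA, and 5.05% and 2.22% had such an unadjusted p. The counts in total RNA are near these shares. Marker lists leaned both ways there. Of the markers, 6 of 11 for excitatory neurons, 6 of 11 for interneurons and 3 of 5 for cortical identity had a difference above 0. So did 3 of 10 astrocyte, 1 of 7 oligodendrocyte lineage and 0 of 5 radial glia and progenitor markers. Of the 8 microglial markers 2 were measured in total RNA, Aif1 (-0.29, adjusted p = 0.894) and C1qb (-0.28, adjusted p = 0.982), and the mean level over the list ran from 3.72 to 4.12 in KO and from 3.95 to 4.32 in WT. In polyribosomal RNA Aif1 differed by -0.04 and C1qb by -0.06. The choroid plexus gene Ttr had a lowest, median and highest value of 2.65, 6.84 and 11.3 in KO total RNA, against 3.37, 10.5 and 11.4 in WT. Its difference was -2.01 (standard error 1.90, adjusted p = 0.998) in total RNA and -2.35 (standard error 1.95, adjusted p = 1.00) in polyribosomal RNA. Over the 9 genes of the meninges and choroid plexus list the mean level ran from 3.04 to 4.00 in KO and from 3.11 to 4.17 in WT total RNA. The mitosis genes measured in total RNA numbered 7, with a median difference of -0.08, and the largest was that of Ccna2, a cyclin (-0.23, adjusted p = 0.982). The mean level over the 31 mitosis genes on the array ran from 3.67 to 3.82 in KO and from 3.76 to 3.89 in WT total RNA. Many genes in these list means were dim. Below the limit on every total RNA array of the group were 21 mitosis genes in KO and 19 in WT. So were 5 and 4 of the 8 microglial markers, and 7 and 6 of the 9 meninges and choroid plexus genes. The list means are therefore descriptions and show no difference in level. The part of these markers and mitosis genes in the Haus7 values was not tested.

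Between polyribosomal and total RNA, 31 of 45 measured genes of the 6 lists passed the test in KO and 28 of 44 in WT, near the shares of 66.9% and 65.9% over all genes. List counts below are to be set against 38.7% higher and 28.2% lower over all genes in KO, and 37.5% and 28.4% in WT, and list medians against 0.09 in each. Of the gamma-tubulin ring complex, which augmin recruits, 8 genes were measured, and 4 rose and 3 fell in both genotypes, with a median of 0.23 in KO and 0.21 in WT. Tubg1, the main gamma-tubulin, was higher by 0.96 in KO and 0.86 in WT, while Tubg2, its second gene, was lower (-0.67 in KO and -0.79 in WT). The small subunit Mzt1 had the largest change of the list (-2.21 in KO and -2.35 in WT), and the related Mzt2 rose (0.98 in KO and 0.87 in WT). Nedd1, the adaptor that Haus6 contacts, was below the limit, with group means of 3.43 in KO and 3.37 in WT polyribosomal RNA, and 3.35 in KO and 3.44 in WT total RNA.

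Of the mitosis genes 8 were measured, and 6 rose and 1 fell in KO while 5 rose and 0 fell in WT, with a median of 0.79 in KO and 0.72 in WT. The largest were Cdca8 of the chromosomal passenger complex (1.45 in KO and 1.33 in WT) and the checkpoint gene Mad2l1 (1.00 and 0.84). The kinase Cdk1 (0.92 and 0.81) and Racgap1 of the central spindle (0.82 and 0.74) followed. Cdk1 reached the limit on 0 KO and 1 WT total RNA arrays, and on all 6 polyribosomal arrays of each genotype. It was thus tested because of its polyribosomal values, and its rise is a description only. The counts and medians of the list include it. Of the spindle assembly factors 6 were measured, with 2 higher and 1 lower in KO and 3 higher and 0 lower in WT, and a median of 0.16 in KO and 0.22 in WT. The GTPase Ran rose in both genotypes (0.49 in KO and 0.46 in WT). Numa1 of the spindle pole (0.23 and 0.32) passed the test, but lost the call in both genotypes with the mean of its probe sets or without the arrays numbered 1 or 2. In WT it also lost the call without number 3. In KO it did so without number 4 or 6, with no filter, with trend and robust settings, and without the block. Kpnb1, counted as higher in WT, and Ckap5, counted as lower in KO, also lost the call in several settings.

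The UCHL5 list, which holds the reported partner of HAUS7, had 4 measured genes. Of these, 2 rose and 0 fell in KO and 3 rose and 0 fell in WT, against 66.9% and 65.9% of all genes called in either direction. The list median was 0.25 in KO and 0.31 in WT. Uchl5 rose by 0.67 in KO and 0.61 in WT, and the proteasome subunit Psmd1 by 0.35 in KO and 0.37 in WT. Ino80, called in WT alone (0.24, limma adjusted p = 0.0317), lost the call without the lysate numbered 1, 3, 4 or 6. Between genotypes Uchl5 differed by -0.02 in total RNA and by 0.04 in polyribosomal RNA (adjusted p = 0.998 and 1.00).

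The pericentriolar list had 1 gene higher and 3 lower of 7 in KO, and 0 higher and 3 lower of 6 in WT, with a median of -0.13 in KO and -0.48 in WT. The 1 gene higher in KO, Cep57 (0.26), lost the call in several settings. Pcm1 of the centriolar satellites (-1.56 in KO and -1.46 in WT), the anchoring protein Akap9 (-0.97 and -0.96) and ninein, Nin (-0.56 and -0.76), were the ones that fell. Of the 12 measured genes for microtubules that do not start at a centrosome, 4 rose and 4 fell in KO, and 4 rose and 3 fell in WT. These counts are near the shares of 66.9% in KO and 65.9% in WT called over all genes. The list median was 0.05 in KO and -0.03 in WT. The severing enzyme Fign (-1.62 and -1.22) and Clasp1 (-1.07 and -0.93), which binds growing ends, fell, and the end-binding Mapre1 (0.78 and 0.73) and the katanin-related Katnal1 (0.71 and 0.65) rose.

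Haus7 lies on the X chromosome, as Fmr1 does, so the measured genes around it were set beside it. RefSeq lists 92 genes between Fmr1 and Haus7, of which 14 were measured. Of these 14, limma called 0 in total or polyribosomal RNA, where 0.0413% and 0.0103% of all genes were called. The median difference of the 14 was -0.05 in total and 0.03 in polyribosomal RNA. Among the 10 measured genes on each side of Haus7, 0 of 20 were called in total RNA (range -0.28 to 0.09) and 0 of 19 in polyribosomal RNA (range -0.43 to 0.12). With such low shares called over all genes, 0 calls in sets this small do not show that the genes were unchanged. At an unadjusted p under 0.05 there were 3 in each, against 5.05% of all genes in total and 2.22% in polyribosomal RNA.

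The nearest measured genes were the zinc-finger gene Zfp275, with a difference of -0.01 in total and 0.12 in polyribosomal RNA, and the calcium pump gene Atp2b3, with -0.17 and -0.27. Nsdhl, an enzyme of cholesterol synthesis and the third measured gene from Haus7 on the Fmr1 side, had the largest difference of the 20 in total RNA. Its lowest, median and highest values there were 8.78, 8.84 and 8.96 in KO, against 8.995, 9.13 and 9.23 in WT, without overlap. The difference was -0.28 (standard error 0.056, limma adjusted p = 0.259) in total and -0.37 (adjusted p = 1.00) in polyribosomal RNA. Pnck, a calmodulin-dependent kinase gene, differed by -0.21 and -0.26, the GABA receptor subunit gene Gabra3 by -0.20 and -0.16, and the adhesion gene L1cam by -0.07 and -0.43. Over the 329 measured genes of the chromosome other than Haus7 and Fmr1, the median difference was -0.02 in total RNA. It was -0.01 in polyribosomal RNA, where 323 were tested. In total RNA limma called 1 of the 329 higher and 1 lower, while 4 of all 9690 genes (0.0413%) were called. Below 0 were 210 of the 329. In polyribosomal RNA it called 0, against 0.0103% of all genes, and 168 of the 323 lay below 0.

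**Figure D4:**
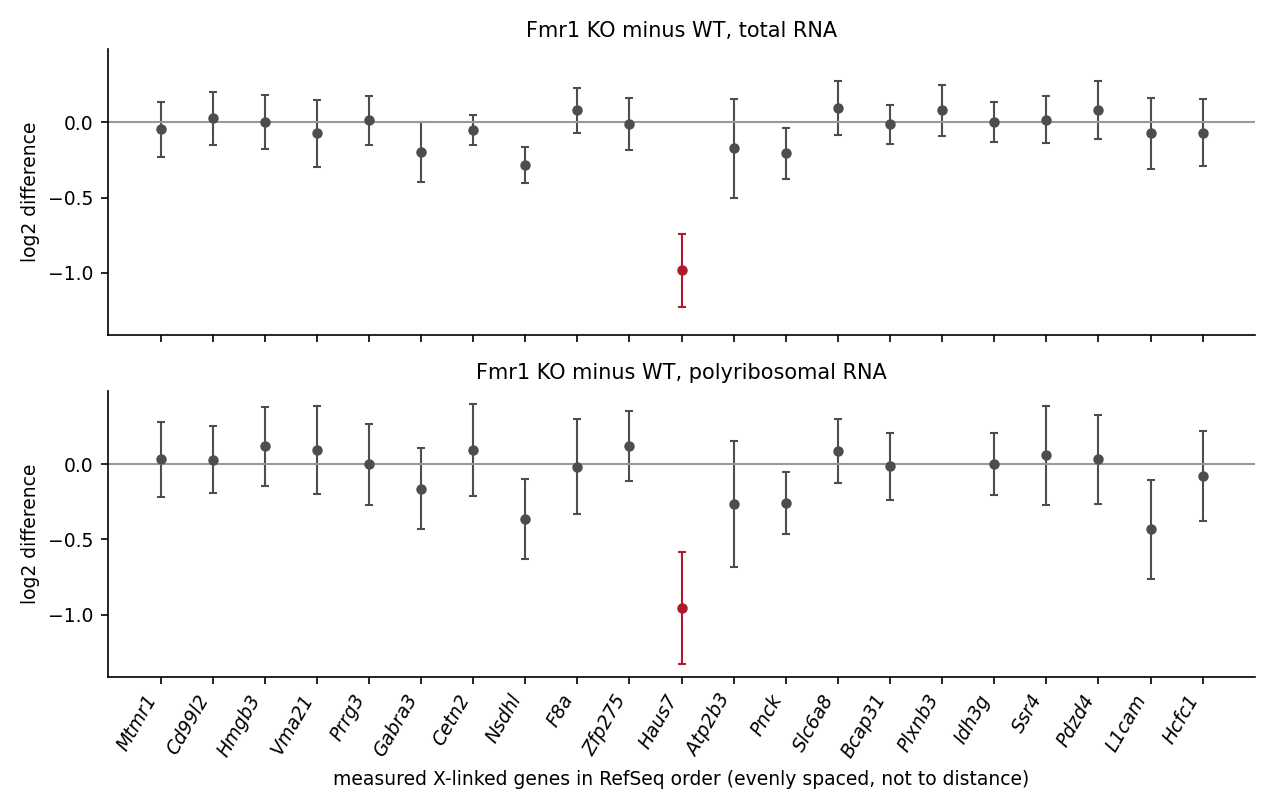
Fmr1 KO minus WT log2 difference of Haus7 and the 10 nearest measured genes on each side of it on the X chromosome, in gene order, with 95% intervals (6 arrays per group). The upper and lower panels show the RNA kinds named on them, and a gene not measured there has no point. Haus7 lies at -0.98 in total and -0.95 in polyribosomal RNA, and its 20 neighbours lie between -0.28 and 0.09 in total RNA.

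The profiles most like that of Haus7 were sought over the 24 arrays among 9954 genes. Likeness was the root mean square difference of log2 values, each gene centred on its own mean. The nearest were Wdr33 (0.427), Amz1 (0.461), Plaa (0.467), Pnma1 (0.468) and Eci1 (0.470), where the median gene was at 0.682 and Haus7 varied around its own mean by 0.672. After group means were removed, so that only the spread within groups remained, the nearest were Pdcl3 (0.118), Ebna1bp2 (0.126), Rpf1 (0.150), Prkab1 (0.152) and Tpm4 (0.153), against a median of 0.308 and a Haus7 spread of 0.259. The other subunits stood at 0.589 (Haus5), 0.595 (Haus8), 0.636 (Haus2), 0.688 (Haus4), 0.762 (Haus3), 0.804 (Haus6) and 0.811 (Haus1). Of these 7, 4 were farther from Haus7 than the median gene, Haus6 among them. Haus5 and Haus6 were too dim to belong to the 9954 genes, so their places cannot be compared with the others. These figures are descriptions, since genes share arrays and lysates.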

How the data were processed

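Per the labels' protocols, RNA of 12 lysates (6 per genotype, each from 2 pooled mice) was put on Affymetrix Mouse 430 2.0 arrays as polyribosomal and total RNA. Per the submitters' processing notes, GCRMA was used, which corrects background, normalizes between arrays and summarizes probe sets. The values the authors deposited are on the log2 scale, as judged from their range. Its version, and whether all 24 arrays were normalized together, are not given in the sources used here.

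Two-sided linear models were fitted in limma 3.58.1 (R 4.3.3, lmFit followed by eBayes). P-values were adjusted by Benjamini and Hochberg over every probe set that reached a log2 value of 4 on 6 or more arrays of the comparison, and the threshold was 0.05. Differences are KO minus WT or polyribosomal minus total. A single-gene p is limma's. The comparisons of polyribosomal with total RNA had the lysate as a block, and the genotype comparisons had none. The interaction was tested on 12 lysate differences. The number of arrays limits the precision. The script was tested on simulated data.

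The members and all gene lists were chosen with earlier results of these data known. The text names all subunits at every probe set, up to 4 genes with the largest difference per list (mitosis, spindle assembly, gamma-tubulin ring complex, pericentriolar material, non-centrosomal microtubules and UCHL5 partners), up to 6 of the 20 X neighbours with the largest difference, and 5 genes most like Haus7 by each of 2 measures. Nedd1, Zfp275 and, for both genotypes, genes named in either were added after their values were seen.

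The study used littermate pairs. After group means were removed, same-numbered KO and WT total arrays had correlations from 0.133 to 0.532, over 0.1 in 6 of 6 pairs, so the numbers were taken to pair them. The range was -0.137 to 0.625 in polyribosomal RNA (4 of 6). The standard errors, intervals and p-values between genotypes, the interaction included, come from models without this pairing. The block among the alternatives adds it. Arrays of both RNA kinds with the same number come from one lysate, per the labels. Alternatives were no filter, a limit of 6, median centring, eBayes with trend and robust settings, the mean of a gene's probe sets, the block, and leaving out each number. Dropping WT array or lysate 4 was chosen after seeing the data. Sequences and gene order came from RefSeq (GRCm38.p6), and 1 further promoter sequence is not reported here. Figures used matplotlib 3.10.9 in Python 3.11.15.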

Additional observations from a re-analysis of the deposited data

Results flagged for a closer look

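In 5 of the 48 groups of 6 arrays (12 probe sets in 4 groups each) 1 array stood far from the other 5, where chance alone would mark about 1 group in 20. Haus3 had its lowest KO polyribosomal value on array 4, at 3.79, with the next at 4.23. Haus2 probe set 1432511_s_at was highest at 5.36 on KO polyribosomal array 5, with the next at 4.80, and at 5.23 on WT polyribosomal array 4, with the next at 4.55. Haus6 probe set 1455488_at was lowest at 3.23 on KO total array 5, with the next at 3.49, and at 3.33 on WT total array 6, with the next at 3.57. Both Haus6 values are below the limit of 4, as are all values of that probe set. WT polyribosomal array 4 is also the array with the lowest mean correlation with its group (0.9932), and KO polyribosomal array 5 is close to it (0.9934). The part of these arrays' quality in the Haus2 values was not tested.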

How the results depend on the processing

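Haus7 and Haus4 in both genotypes, and Haus3 in WT, kept their call between polyribosomal and total RNA without any 1 lysate number, without the block, with array centring, with trend and robust settings, and with the mean of probe sets. Raising the limit from 4 to 6 left fewer probe sets to test. Between genotypes in total RNA 2 genes were called in place of 4, and between polyribosomal and total RNA 0 subunits in place of 2 in KO and 1 in place of 3 in WT. With no filter 5 subunits were called in WT in place of 3. The replicate block, which follows the littermate pairing in total RNA, left 2 genes called in place of 4. Leaving aside Haus7 between genotypes, which carries no test, the block changed no call of a subunit. Leaving out 1 number gave 1 to 3 genes in total RNA, with 1 gene without number 1 or number 4 and 2 without number 3, and 3 to 4 subunits were called in WT and 2 to 3 in KO between RNA kinds. Signs turned for some small values. Slc6a8 in total RNA was -0.00250 with the mean of probe sets, Haus2 in polyribosomal RNA was -0.00185 with centring, and the Haus2 interaction was 0.0191 with the mean of probe sets and 0.0736 without WT lysate 4. Without 1 number, the genotype difference ran from -0.0221 to 0.0445 for Haus2 and from -0.0107 to 0.0623 for Haus4 in total RNA, and from -0.0629 to 0.121 for Haus2 and from -0.123 to 0.00082 for Haus3 in polyribosomal RNA. In the same way Haus1 between RNA kinds in KO ran from -0.0532 to 0.128, and the interaction from -0.0739 to 0.176 for Haus7, from -0.0769 to 0.0968 for Haus2 and from -0.112 to 0.0340 for Haus8. The cause of these turns was not tested. Haus5 and Haus6 were too dim to compare.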
